A study of Macaca mulatta with 24 samples.

Results

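The chaperonin TRiC (TCP-1 ring complex, also called CCT) was followed through its 8 subunit genes, *TCP1*, *CCT2*, *CCT3*, *CCT4*, *CCT5*, *CCT6A*, *CCT7* and *CCT8*, in RNA-seq of omental white adipose tissue (WAT) from 24 female rhesus macaques. The members are the rows of the deposited count table whose Ensembl ID carries a subunit's symbol in the gene name table. Each of the 8 symbols matched exactly 1 ID among the 32386 genes of the table, and all 8 passed the filter on low counts that left 15207 genes to test. The animals formed 4 groups of 6. Controls (*C*) carried cholesterol implants and ate monkey chow. The *T* group carried testosterone implants and ate chow, the *WSD* group carried the control implants and ate a high-fat Western-style diet (WSD), and the *T* + *WSD* group had both the testosterone implants and the diet. Treatment lasted 3 years in every group, and the labels give an age of 4 years for all animals. By the study's methods the 6 animals of each group were picked as representative of a larger cohort in fat mass and insulin, so the spread between them may be narrower than in unselected animals.

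The family was chosen from a measured value in these same libraries. *CCT8* had been singled out by its interaction between testosterone and diet, together with the signs of its differences for *T* + *WSD* against *WSD* and for *T* against *C*, and the other 7 subunits were added because they share its complex. The interaction and the 2 testosterone contrasts are therefore given below as descriptions with no test. The contrasts of *T* + *WSD* with *C*, of *WSD* with *C* and of *T* + *WSD* with *T* were tested, but they use the same libraries and are not independent of that choice.

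TRiC is a cytosolic folding machine made of stacked rings, in which each of the 8 related subunits occupies a fixed position. It encloses newly made proteins and releases them folded as its subunits bind and hydrolyse ATP. Actins and tubulins depend on it, as do many proteins with WD40 repeats, such as the β subunits of G proteins and the activators of the anaphase-promoting complex. Prefoldin hands chains to it from the ribosome, phosducin-like proteins act as its cofactors, and HSP70 and HSP90 work upstream of it or beside it on other clients. In adipose tissue the actin and tubulin cytoskeleton is remodelled when preadipocytes differentiate and when fat cells enlarge.

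The shallowest library held 6899185 counts, the deepest 28270776 and the median one 20630512.5, and a TRiC subunit had between 329 and 5711 counts in a library, so every subunit was measured well above the detection limit in every animal. In 8 libraries, 2 in each group, the single gene ENSMMUG00000038258 took 9.92% to 54.7% of all counts, against 0.879% to 2.51% in the other 16 libraries, and these 8 are called the library batch below. The name is a shorthand, as the labels name no batch. These 8 were also the shallowest, with 6899185 to 17538167 counts against 20177588 to 28270776 in the other 16. A comparison between the 2 subsets is therefore also one of depth. Values are CPM, counts scaled to a fixed library total after trimmed-mean (TMM) normalization, and a gene is called changed at an adjusted p under 0.05 in edgeR's quasi-likelihood test, with Benjamini-Hochberg adjustment over the 15207 genes. The labelled tissue was checked against fat cell markers. *ADIPOQ* averaged 1204 CPM, *PLIN1* 1800 CPM and *LPL* 6677 CPM, whereas the row named *FABP4* averaged 2.05 CPM. Gene lengths were not used here, so a CPM value is compared between groups for the same gene and never between genes.

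The summed level of the 8 subunits averaged 1134 ± 119 CPM in *C* and 1083 ± 94.2 CPM in *T* (SD, n = 6 in each group). On the diet it averaged 1251 ± 168 CPM without testosterone (*WSD*) and 959 ± 59.9 CPM with it (*T* + *WSD*). The *T* + *WSD* animals ran from 889 to 1036 CPM and the *WSD* animals from 1028 to 1504 CPM, so these groups overlapped by a single pair of animals. The *T* + *WSD* mean was the lowest of the 4 groups for 8 of 8 subunits. The *WSD* mean was the highest for 7 of 8, all but *CCT4*. *T* lay below *C* for 7 of 8. For 7 of 8, all but *CCT2* (138 CPM in *C* and 123 CPM in *T*), these means differed by less than the smaller of their SDs. An SD gives the spread between animals and not the error of a mean, and the order of *T* and *C* was not tested.

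**Figure D1:**
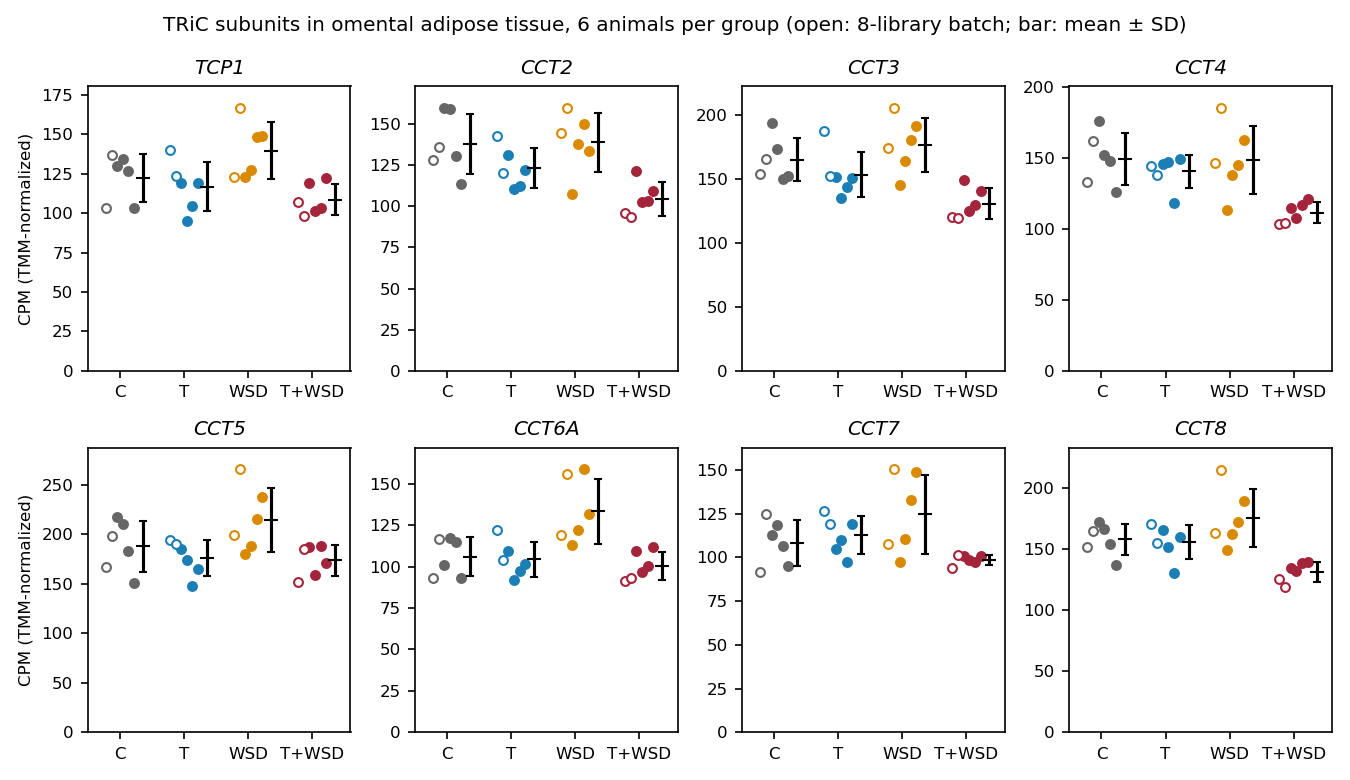
CPM of the 8 TRiC subunits (y axis, TMM-normalized, from 0) in each animal of the 4 groups (x axis), with the mean and SD of 6 animals beside the points and the 8 libraries of the library batch drawn open. The *T* + *WSD* means are the lowest for every subunit, and for *CCT3* and *CCT4* no *T* + *WSD* animal reaches the lowest *C* animal.

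The combined treatment was first set against *C*. *CCT2*, *CCT3*, *CCT4* and *CCT8* were lower in *T* + *WSD* than in *C*, by 16.6% to 25.5%, and the other 4 subunits also had lower estimates but did not pass the test. The 4 of 8 called lower stand beside 9.94% of all tested genes called lower and 7.18% called higher in this contrast. The median log2 fold change of the 8 subunits was -0.22, with a range of -0.42 to -0.08, and that of all tested genes was -0.04, with 54.9% of them below 0. No subunit reached a 1.5-fold change in any contrast. In bulk tissue, fewer cells of a type and less RNA per cell cannot be told apart.

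*CCT4*, whose protein sits in the hemisphere of the ring with high ATP affinity, showed the largest decrease. Its level in *C* ran from 126 to 176 CPM with a median of 150.1, and in *T* + *WSD* from 104 to 121 CPM with a median of 111. Every *T* + *WSD* animal lay below every *C* animal. The log2 fold change was -0.42 ± 0.10 (SE, edgeR adjusted p = 0.00844). *CCT2*, in the same hemisphere and also described as a receptor for aggregated proteins in autophagy, ran from 113 to 160 CPM in *C* (median 133) and from 93.3 to 122 CPM in *T* + *WSD* (median 103). These ranges overlapped, and the log2 fold change was -0.40 ± 0.10 (SE, edgeR adjusted p = 0.0111).

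*CCT3*, a subunit of the hemisphere with low ATP affinity, ran from 150 to 194 CPM in *C* (median 160) and from 119 to 149 CPM in *T* + *WSD* (median 127). The groups were separated by less than 1 CPM, and the log2 fold change was -0.33 ± 0.09 (SE, edgeR adjusted p = 0.0184). *CCT8*, from the same hemisphere, ran from 137 to 172 CPM in *C* (median 160) and from 119 to 140 CPM in *T* + *WSD* (median 133). The ranges overlapped at the lowest *C* animal, and the log2 fold change was -0.26 ± 0.09 (SE, edgeR adjusted p = 0.0389). All *T* + *WSD* animals lay below all *C* animals for 2 of 8 subunits, *CCT3* and *CCT4*, and for 4.12% of all tested genes.

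The other 4 subunits had smaller estimates. *TCP1*, the founding member that gave the complex its name, had a log2 fold change of -0.17 ± 0.10 (SE, edgeR adjusted p = 0.264), from 103 to 137 CPM in *C* and from 98.4 to 122 CPM in *T* + *WSD*. *CCT7*, of the low-affinity hemisphere, had -0.13 ± 0.10 (adjusted p = 0.406), with *C* from 91.6 to 125 CPM and *T* + *WSD* in a narrow band from 93.8 to 101 CPM. *CCT5*, of the high-affinity hemisphere, in which variants are known in hereditary sensory neuropathy, had -0.11 ± 0.11 (adjusted p = 0.491), and *CCT6A* had -0.08 ± 0.10 (adjusted p = 0.631). The 95% interval of the *CCT6A* difference ran from -0.28 to 0.12 on the log2 scale, which includes the point estimate of *CCT8*. It does not include those of *CCT2* (-0.40), *CCT3* (-0.33) and *CCT4* (-0.42). Whether the subunits differed from each other in their response was not tested.

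**Figure D2:**
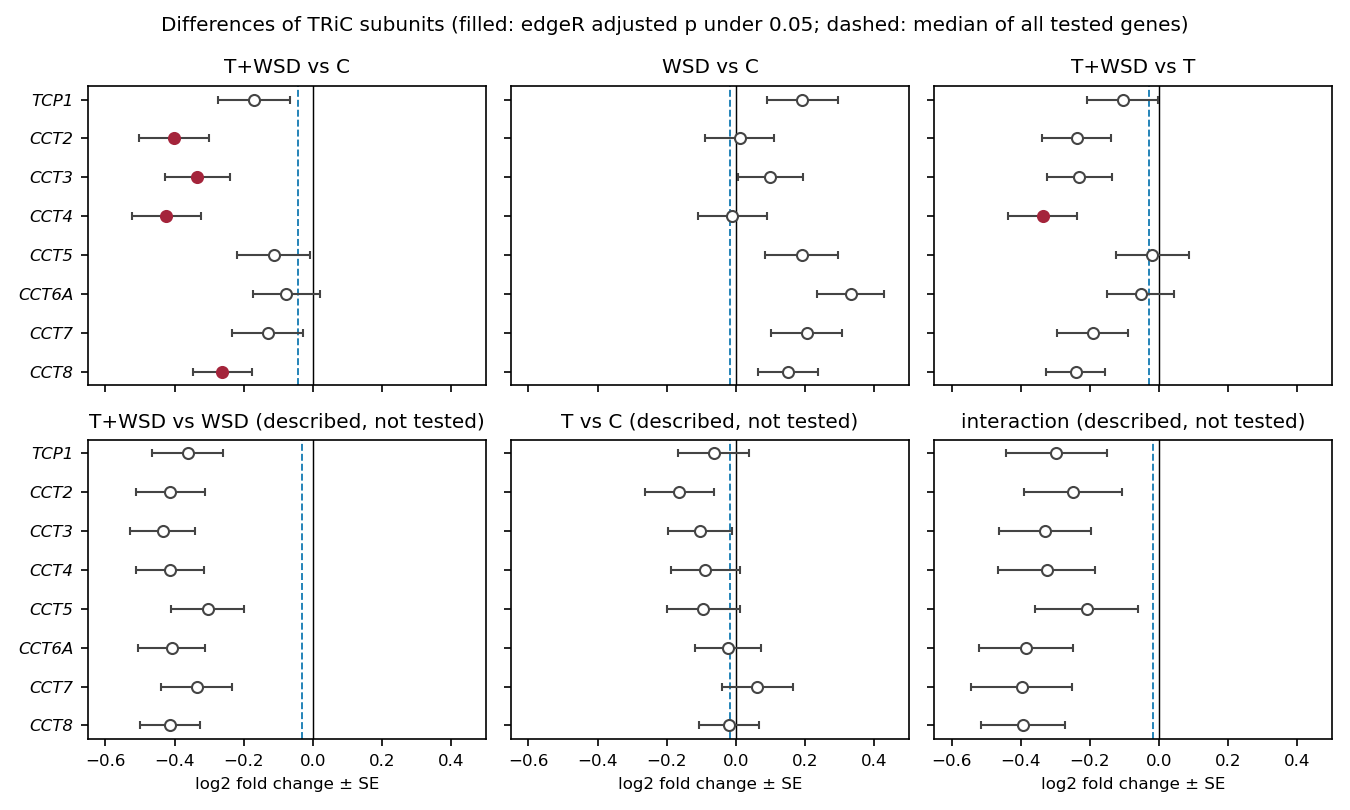
Log2 fold change and SE (x axis) of each TRiC subunit (y axis) in the 3 tested and 3 described contrasts, with filled points for an edgeR adjusted p under 0.05 in the tested contrasts and a dashed line at the median of all tested genes. All 8 estimates lie below 0 for *T* + *WSD* against *C*, where 4 are filled, while 7 of 8 lie above 0 for *WSD* against *C*, where none is filled.

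These calls were not retained in subsets of the libraries. In the 16 libraries outside the library batch, 0 of 8 subunits were called (3 at an unadjusted p under 0.05), with log2 fold changes of -0.35 for *CCT2*, -0.28 for *CCT3*, -0.37 for *CCT4* and -0.19 for *CCT8* and adjusted p values of 0.114 to 0.288, and 84 of 15448 genes were called there in all. In the 8 libraries of the batch alone the values were -0.46, -0.39, -0.48 and -0.35, and edgeR called 0 of 13799 genes there. All 8 estimates were below 0 in both subsets. With each animal left out in turn, *CCT2* and *CCT4* were called in 24 of 24 fits. *CCT3* was not called without *C* 3 (adjusted p = 0.0527) or *T* + *WSD* 8 (adjusted p = 0.0629), and *CCT8* was not called in 8 of 24 fits. Of all genes, 17.1% were called with all 24 animals, 11.2% without *C* 3 and 11.4% without *T* + *WSD* 8. Over the 24 fits this share ran from 9.11% (without *C* 1) to 19.5% (without *C* 5).

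Markers of other cell types moved with the same contrast. Of the 8 mesothelial markers tested, 7 were called lower in *T* + *WSD* than in *C* (median log2 fold change -2.51). The summed level of the 8 ran from 2526 to 38662 CPM in *C* and from 232 to 3046 CPM in *T* + *WSD*. The highest *C* value came from *C* 1 alone, and the next was 9533 CPM. Most of the sum was *ITLN1*, which averaged 4817 CPM, against 276 CPM for the next marker, *MSLN*. Of the 6 endothelial markers, 4 were called higher (median log2 fold change 0.63), with a summed level of 982 to 1612 CPM in *C* and 1799 to 2835 CPM in *T* + *WSD*. The adipocyte sum ran from 2034 to 14964 CPM in *C* and from 14770 to 22951 CPM in *T* + *WSD*, with 1 of 9 markers called higher. The lowest *C* value was again from *C* 1, and the next was 9163 CPM. Called higher were also 1 of 6 fibroblast and 2 of 5 smooth muscle markers, and 0 of the 6 macrophage, 5 dividing cell, 3 T or NK cell and 3 B or plasma cell markers passed.

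When the mean level of the mesothelial list entered the fit as a covariate, the log2 fold changes for *T* + *WSD* against *C* were -0.20 for *CCT2*, -0.17 for *CCT3*, -0.32 for *CCT4* and -0.14 for *CCT8*. No TRiC subunit and none of the 15207 genes was called by edgeR in that fit (1 of 8 subunits had an unadjusted p under 0.05), and all 8 subunits kept estimates below 0. The median of the 8 was -0.13 in that fit, against -0.22 without the covariate. The SEs were also larger with the covariate. They rose from 0.10 to 0.15 for *CCT2* and *CCT4* and from 0.09 to 0.14 for *CCT3*. The marker level itself differed between these groups, and why the calls were lost was not tested. Over the 24 animals, Pearson's r of the log2 summed TRiC level with the mean log2 level of a marker list was -0.62 for endothelial and 0.45 for mesothelial markers. With the means of the groups and of the library batch removed these were -0.60 and 0.26. Of the 9 marker lists the endothelial one had the r farthest from 0 on both scales. It was 0.22 for adipocyte and -0.35 for B and plasma cell markers after removal, and the other 5 lists lay between -0.21 and 0.06. These r values are descriptions over animals that share treatment and scaling, and no endothelial covariate was tested.

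**Figure D3:**
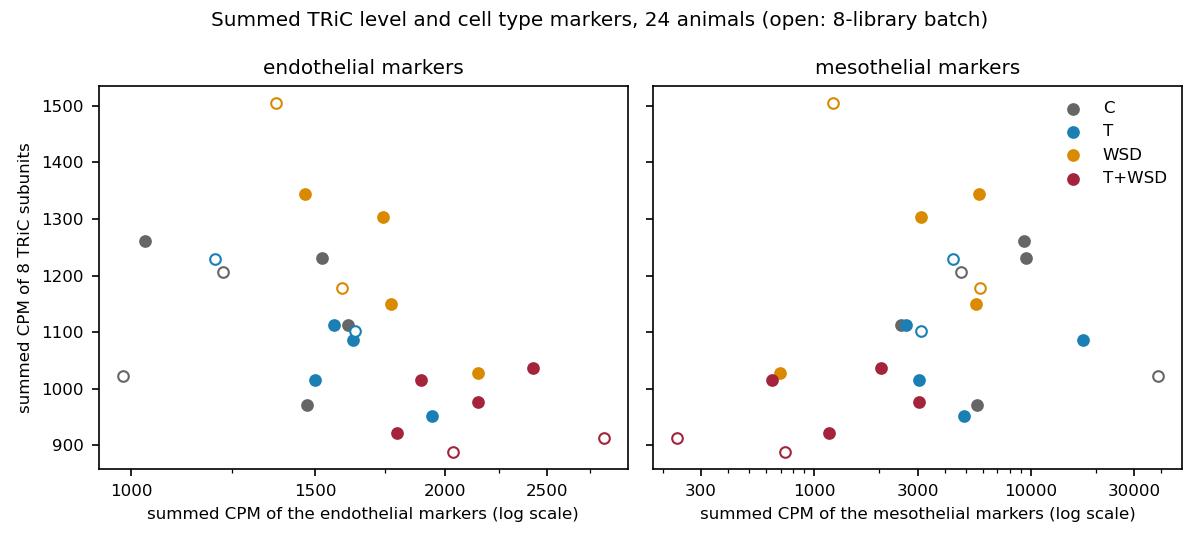
Summed CPM of the 8 TRiC subunits (y axis) against the summed CPM of the endothelial (left) and mesothelial (right) markers (x axes, log scale), 1 point per animal, with the 8 libraries of the library batch drawn open. The *T* + *WSD* animals lie above every *C* animal in endothelial markers (1799 to 2835 against 982 to 1612 CPM), and the 6 *T* + *WSD* animals lie between 889 and 1036 CPM of TRiC.

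The diet alone was compared with *C* next. Of the 8 subunits, 7 had higher estimates in *WSD* than in *C*, and none passed the test. The median log2 fold change was 0.17, with a range of -0.01 to 0.33, and that of all tested genes was -0.02. The median of the 8 was 0.10 without *WSD* 20 and 0.11 in the 16 libraries outside the batch, against 0.26 within the batch. Called were 0% of all tested genes in either direction. At an unadjusted p under 0.05 edgeR had 1 of 8 subunits and 2807 of all genes, and its smallest adjusted p was 0.0593. DESeq2 called 1 of 8 subunits, with 389 genes called in all.

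That subunit was *CCT6A*, the form of the zeta subunit found in most tissues. Its level ran from 93.1 to 117 CPM in *C* (median 108) and from 113 to 159 CPM in *WSD* (median 127), and its mean was 106 ± 11.6 CPM in *C* and 133 ± 19.5 CPM in *WSD* (SD, n = 6 in each). The log2 fold change was 0.33 ± 0.10 (SE, edgeR adjusted p = 0.131), and DESeq2 gave an adjusted p of 0.0400. *CCT6A* thus lay on either side of the threshold depending on the tool. *CCT7*, *TCP1* and *CCT5* had log2 fold changes of 0.21, 0.19 and 0.19, and *CCT8* and *CCT3* had 0.15 and 0.10. *CCT2*, at 0.01 ± 0.10, and *CCT4*, at -0.01 ± 0.10 (SE), lay near 0, with 95% intervals of -0.20 to 0.22 and -0.22 to 0.19. No marker was called in this contrast, in which edgeR called no gene at all. The median log2 fold change was -1.08 for the mesothelial, 0.57 for the adipocyte and 0.36 for the endothelial markers.

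The diet in animals that carried testosterone was read from *T* + *WSD* against *T*. All 8 estimates were below 0, with a median log2 fold change of -0.21 and a range of -0.34 to -0.02, against -0.03 for all genes. *CCT4* alone was called, 1 of 8 beside 3.20% of all genes called lower and 3.30% called higher. It ran from 119 to 149 CPM in *T* (median 145) and from 104 to 121 CPM in *T* + *WSD*, and the log2 fold change was -0.34 ± 0.10 (SE, edgeR adjusted p = 0.0465). The lowest *T* animal, at 119 CPM, stood apart from the other 5, which were above every *T* + *WSD* animal.

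Just short of the threshold was *CCT8*, with -0.24 ± 0.09 (SE, edgeR adjusted p = 0.0849), and *CCT2* and *CCT3* had -0.24 and -0.23 with adjusted p values of 0.138 and 0.126. *CCT5* had -0.02 ± 0.11 and *CCT6A* -0.05 ± 0.10 (SE). The call of *CCT4* was made in 11 of the 24 fits that each left out 1 animal, and it was lost under both other scalings. It was kept by DESeq2 (adjusted p = 0.0288), and by edgeR with only the 2 groups (0.0190) and without ENSMMUG00000038258 (0.0467). Of all genes, 6.50% were called with all animals and 2.33% to 9.08% with 1 left out. In the 16 libraries outside the batch *CCT4* had -0.27 (adjusted p = 0.178), 5 of 8 subunits had estimates below 0 and the median of the 8 was -0.09. With the mesothelial covariate the median was -0.08. In this contrast 5 of 8 mesothelial markers were called lower (median log2 fold change -2.06), with a summed level of 2664 to 17493 CPM in *T* and 232 to 3046 CPM in *T* + *WSD*. The highest *T* value came from *T* 18 alone, and the next was 4910 CPM. Of the 5 smooth muscle markers 2 were called higher, but the median log2 fold change of the 5 was -0.07. Their summed level ran from 735 to 927 CPM in *T* and from 982 to 1502 CPM in *T* + *WSD*.

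The remaining contrasts hold the values from which *CCT8* was chosen. Between *T* + *WSD* and *WSD*, which differ in testosterone on the same diet, all 8 subunits had lower estimates with *T* + *WSD*, and 7 of the 8 log2 fold changes fell between -0.43 and -0.34. They were -0.43 for *CCT3*, -0.41 for each of *CCT2*, *CCT4*, *CCT6A* and *CCT8*, -0.36 for *TCP1*, -0.34 for *CCT7* and -0.30 for *CCT5*, with SEs of 0.09 to 0.11 and a median of -0.41 against -0.03 for all genes. As a description, 5 of 8 (*CCT2*, *CCT3*, *CCT4*, *CCT6A* and *CCT8*) were past the threshold where 0.940% of all genes were called lower and 0.730% higher. The count became 0 with only the 2 groups, in the 16 libraries outside the batch, in the 8 libraries of the batch and with the mesothelial covariate, and 2 with upper-quartile scaling. It was 0 without *WSD* 20, *WSD* 24, *T* + *WSD* 7, *T* + *WSD* 8 or *T* + *WSD* 10, 1 without *T* + *WSD* 9 or *T* + *WSD* 11, 2 without *C* 2 or *WSD* 23, 3 without *T* + *WSD* 12 and 7 without *WSD* 21. All 8 estimates stayed below 0 in each of these fits. Nothing is read from the count, since this contrast entered the choice.

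*CCT8* itself ran from 149 to 215 CPM in *WSD* (median 168) and from 119 to 140 CPM in *T* + *WSD*. *CCT6A* ran from 113 to 159 CPM in *WSD* and from 91.4 to 112 CPM in *T* + *WSD*, and *TCP1* from 123 to 167 and from 98.4 to 122 CPM. For these 3 of 8 subunits no *T* + *WSD* animal reached the lowest *WSD* animal, which held for 1.37% of all genes. Nothing is read from this count either, since *CCT8* was chosen partly from this contrast. For *CCT2*, *CCT3*, *CCT4*, *CCT5* and *CCT7* the groups overlapped, and the lowest *WSD* animal for *CCT4* (114 CPM) lay within the *T* + *WSD* range. The SD of *CCT7* was 22.6 CPM in *WSD* and 2.88 CPM in *T* + *WSD*.

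Testosterone on chow was read from *T* against *C*. The 8 log2 fold changes ran from -0.16 for *CCT2* to 0.06 for *CCT7*, with a median of -0.08 against -0.02 for all genes. 7 of 8 were below 0. The median ran from -0.12 to -0.04 with each animal left out. As a description, edgeR called 0 of 8 subunits and 0% of all genes in either direction. At an unadjusted p under 0.05 it had 0 subunits and 1312 genes, and DESeq2 also called 0 subunits. These counts are not read as a test, since the sign of *CCT8* in this contrast entered the choice. Within the 8 libraries of the library batch the direction differed, with 1 of 8 below 0 and a median of 0.09.

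The interaction, which is the difference between the testosterone effect on the diet and that on chow, was below 0 for all 8 subunits. Its log2 value was -0.39 ± 0.12 for *CCT8*, -0.40 ± 0.15 for *CCT7*, -0.38 ± 0.14 for *CCT6A*, -0.33 ± 0.13 for *CCT3* and -0.32 ± 0.14 for *CCT4*. *TCP1* had -0.30 ± 0.15, *CCT2* -0.25 ± 0.14 and *CCT5* -0.21 ± 0.15 (all SE). *CCT7* thus had a value next to that of *CCT8*, the gene that had been singled out, and the median of the 8 was -0.33 against -0.02 for all genes. As a description, 0 of 8 were past the threshold by edgeR and 0 by DESeq2, where edgeR called 0.289% of all genes in either direction. At an unadjusted p under 0.05 edgeR had 5 of 8 subunits and 2050 of all genes. Nothing is read from these counts, since the interaction entered the choice. The median was -0.15 in the 16 libraries outside the batch and -0.64 in the 8 libraries within it, so its size differed widely between the subsets.

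The share of each subunit in the summed TRiC reads was described for each group. Shares are of summed CPM, depend on gene length, and are compared for the same subunit only. On chow the share of *CCT4* was 13.2% ± 0.537 in *C* and 13.04% ± 0.986 in *T*, and on the diet it was 11.8% ± 0.606 in *WSD* and 11.6% ± 0.328 with both treatments (SD, n = 6). In *C* it ran from 12.3% to 13.95% and in *T* + *WSD* from 11.1% to 11.96%, without overlap. *CCT6A* took 9.37% ± 0.778 in *C* and 9.63% ± 0.434 in *T*, and its share was 10.7% ± 0.846 in *WSD* and 10.5% ± 0.300 with both treatments. Both diet groups thus had a lower mean share of *CCT4* and a higher mean share of *CCT6A* than both chow groups. The same order held for *CCT2* and *CCT3*, lower on the diet, and for *TCP1* and *CCT5*, higher. For *CCT3* the means of *WSD* (14.15%) and *T* (14.16%) nearly met. The shares sum to the whole, so a lower share of some subunits comes with a higher share of others.

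For *CCT5* the share was 16.5% ± 0.613 in *C* and 18.1% ± 1.38 in *T* + *WSD*, and for *CCT2* it was 12.1% ± 0.655 and 10.9% ± 0.521 (SD, n = 6). The mean shares of *TCP1*, *CCT3*, *CCT7* and *CCT8* lay within 1 percentage point of each other over the 4 groups. These shares were described and not tested.

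**Figure D4:**
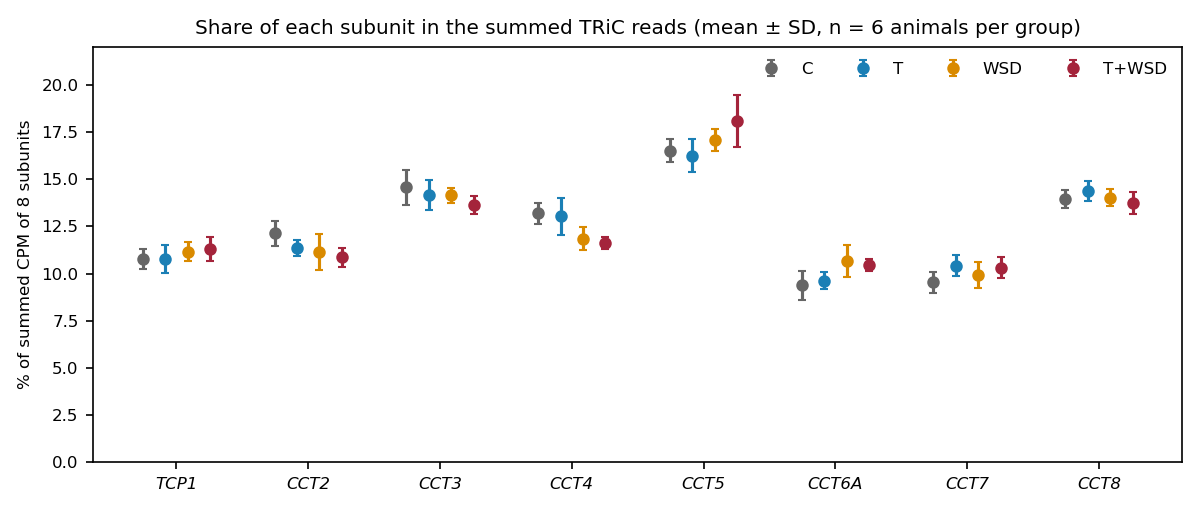
Share of each TRiC subunit in the summed CPM of the 8 (y axis, in %, from 0), as mean and SD of 6 animals in each of the 4 groups. *CCT4* takes 13.2% in *C* and 11.6% in *T* + *WSD*, and *CCT6A* 9.37% and 10.5%.

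The subunits varied together from animal to animal. Over the 24 animals, Pearson's r between the log2 levels of the 28 pairs of subunits ran from 0.56, for *CCT4* with *CCT6A*, to 0.93, for *CCT2* with *CCT3*, with a median of 0.80. With the means of the groups and of the library batch removed it ran from 0.59 to 0.91 (median 0.74). These are descriptions over animals that share treatment, tissue make-up and scaling. The genes whose log2 CPM followed the summed TRiC level most closely over the 24 animals were *NDUFAF4* (r = 0.90), an assembly factor of respiratory complex I, *HIKESHI* (0.88), the nuclear import carrier of HSP70, the cytokine *MIF* (0.88), *PDHB* (0.88), of the pyruvate dehydrogenase complex, and *PSMD8* (0.88), a lid subunit of the proteasome. Those with the lowest r were *PURG* (-0.83), *AGO4* (-0.83), an Argonaute protein, and *ASB2* (-0.81), a subunit of a ubiquitin ligase.

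Of genes that could share reads with a subunit, *CCT6B*, the paralogue of *CCT6A* known from testis, was measured at a low level, with means of 5.74 ± 0.922 CPM in *C* and 5.04 ± 0.913 CPM in *T*, and of 5.89 ± 0.877 CPM in *WSD* and 5.79 ± 0.905 CPM with both treatments (SD, n = 6). It had a log2 fold change of 0.02 ± 0.15 for *T* + *WSD* against *C* (SE, edgeR adjusted p = 0.955). In the RefSeq annotation of a later assembly, T2T-MMU8v2.0, *TCP1* overlaps *ACAT2* and 2 small nucleolar RNAs, *CCT4* overlaps *COMMD1*, *CCT3* overlaps *TSACC*, *CCT6A* holds 2 small nucleolar RNAs and *CCT7* overlaps a long noncoding RNA. *ACAT2*, a thiolase of cholesterol synthesis, averaged 22.9 CPM and had a log2 fold change of -0.98 (adjusted p = 0.0244) for *T* + *WSD* against *C*, and *COMMD1* averaged 14.9 CPM and had -0.29 (adjusted p = 0.0791). The strand setting of the counting is not given in the sources used here, so reads from overlapping genes on opposite strands may not have been separated.

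The partners and substrates of TRiC were counted in 11 lists of 78 symbols outside the 8 subunits, of which 63 genes could be tested. For *T* + *WSD* against *C*, 14 of the 63 (22.2%) were called lower and 2 (3.17%) higher, beside the 9.94% and 7.18% of all genes given above. For *WSD* against *C* 0 of 63 were called. For *T* + *WSD* against *T* 2 were called lower and 3 higher, and for *T* + *WSD* against *WSD* 2 and 2. None of these list genes was called for *T* + *WSD* against *C* in the 16 libraries outside the batch or with the mesothelial covariate. The covariate took the median of the tubulins from -0.66 to -0.07 and that of prefoldin from -0.31 to -0.12, while that of the HSP70 and HSP90 machinery was -0.32 without it and -0.37 with it.

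Upstream of TRiC, prefoldin had 5 tested subunits with a median log2 fold change of -0.31 for *T* + *WSD* against *C*, of which 3 were called lower and 0 higher. *PFDN5*, known also as the MYC-binding subunit MM-1, went from 34.3 ± 11.4 to 21.2 ± 3.74 CPM (SD, n = 6), with a log2 difference of -0.70 (edgeR adjusted p = 0.0121). *PFDN6* had -0.44 (adjusted p = 0.0316) and *VBP1*, the α-type subunit that binds the VHL protein, -0.31 (adjusted p = 0.0330). Of 4 prefoldin-like genes, which serve in a co-chaperone complex with HSP90, 0 were called by edgeR, and they ran from -0.23 for *UXT* to 0.04 for *URI1*. Of the 3 phosducin-like cofactors 0 were called, from -0.14 for *PDCL* to 0.01 for *TXNDC9*.

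Of the 5 tubulin folding cofactors, which take tubulin over from TRiC to build the α/β dimer, *TBCC* was called lower at -0.33 (edgeR adjusted p = 0.0277). *TBCE*, at 0.23 (adjusted p = 0.0560), was called higher by DESeq2 and under both other scalings. Among the substrates, 3 of 6 tested tubulins were called lower, all α-tubulins. The β-tubulin *TUBB* went from 475 ± 38.5 to 339 ± 66.7 CPM (SD, n = 6) and was not called (log2 difference -0.49, edgeR adjusted p = 0.0659). *TUBA1B*, *TUBB2A* and *TUBB4B* were not matched and *TUBB6* was not tested, so the list is incomplete. *TUBA1C* went from 140 ± 20.6 to 73.5 ± 24.1 CPM (SD, n = 6), with a log2 difference of -0.93 (adjusted p = 0.0154), and *TUBA1A* and *TUBA4A* had -0.83 and -0.99 (adjusted p = 0.0371 and 0.0275). Near-identical tubulin genes can share reads, so the split of the decrease between them is uncertain. Of the 6 actins and actin-related genes 0 were called, from -0.13 for *ACTG1* to 0.77 for *ACTA2* (adjusted p = 0.134), which is also a smooth muscle marker.

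Of the 10 WD40-repeat and other substrates, 2 were called lower and 1 higher. *GNB2*, a β subunit of G proteins, had a log2 fold change of -0.27 (edgeR adjusted p = 0.0141), and *FZR1*, an activator of the anaphase-promoting complex, -0.30 (adjusted p = 0.0134). *PPP2R2A*, a regulatory subunit of protein phosphatase 2A, had 0.37 (adjusted p = 0.00294), and went from 40.4 ± 2.53 to 52.1 ± 2.70 CPM (SD, n = 6). Members of the same list thus moved in opposite directions.

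Other chaperones were counted beside TRiC. Of 14 genes of the HSP70 and HSP90 machinery, 4 were called lower and 0 higher. *HSPA8*, the constitutive cytosolic HSP70, went from 1338 ± 313 to 965 ± 79.7 CPM (SD, n = 6), with a log2 difference of -0.47 (edgeR adjusted p = 0.0435). *DNAJA1*, an HSP40, had -0.56 (adjusted p = 0.0407), the HSP90 cochaperone *PTGES3* -0.31 (adjusted p = 0.0313) and *FKBP4*, an immunophilin of steroid receptor complexes, -0.67 (adjusted p = 0.0477). The count of 4 fell to 1 with DESeq2's size factors in edgeR and to 2 with upper-quartile scaling. In the mitochondrial chaperonin, *HSPE1* had -0.25 (adjusted p = 0.0315) and its partner *HSPD1* 0.12 (adjusted p = 0.728), and *HSPE1* was not called with upper-quartile scaling.

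Of the 6 heat shock factors and targets of HSF1, 1 was called. *CRYAB*, a small heat shock protein also abundant in muscle, averaged 315 ± 124 CPM in *T* + *WSD*, against 53.3 ± 30.6 CPM in *C*, 37.7 ± 27.5 CPM in *T* and 69.5 ± 66.4 CPM in *WSD* (SD, n = 6), and its log2 fold change against *C* was 2.56 (edgeR adjusted p = 0.00476). *HSF1* itself had -0.11 (adjusted p = 0.434). Of the chaperonin-like genes besides *CCT6B*, *MKKS* had -0.08 (adjusted p = 0.634).

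**Figure D5:**
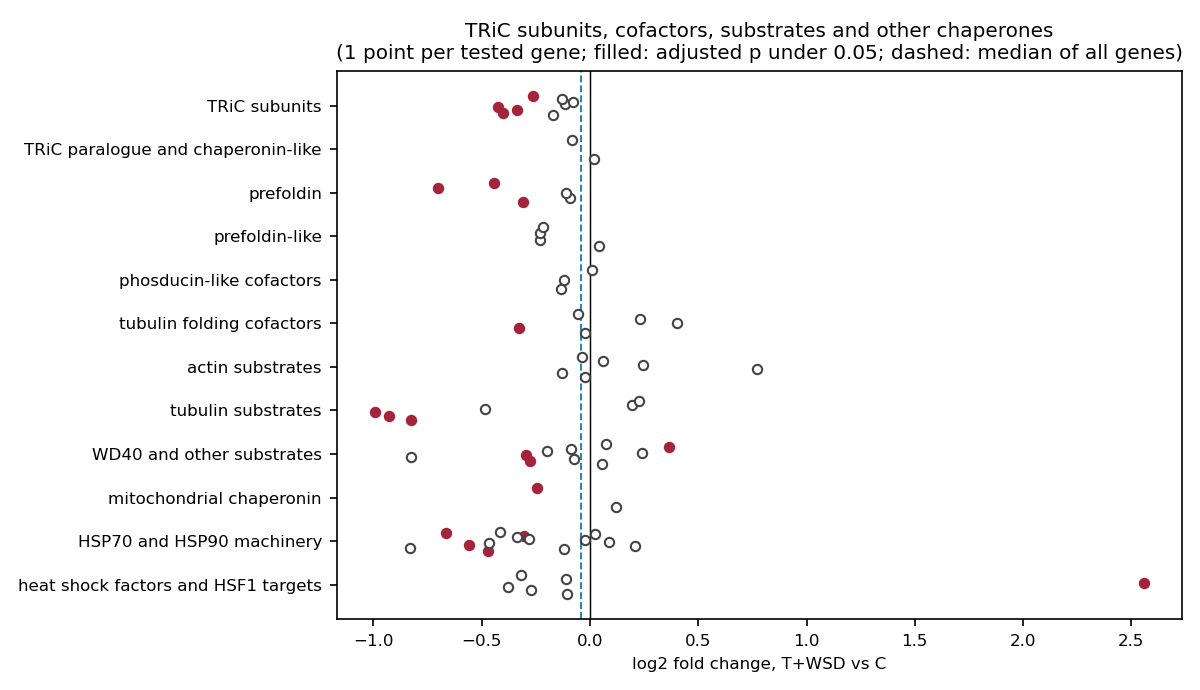
Log2 fold change of *T* + *WSD* against *C* (x axis) for each tested gene of the TRiC list and the 11 other lists (y axis), filled where the edgeR adjusted p is under 0.05, with a dashed line at the median of all genes. The TRiC points lie between -0.42 and -0.08, 3 tubulins lie near -0.83 to -0.99, and *CRYAB* stands at 2.56.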

How the data were processed

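The authors extracted RNA from frozen omental WAT, depleted ribosomal RNA, sequenced single reads and ran FastQC (0.11.5), Trimmomatic (0.36) and then STAR (2.5.2b, per the submitters' processing notes) against the rheMac8 assembly. They deposited raw counts per gene, 1 column per animal, with no normalization. The counting tool and its strand setting are not given in the sources used here. The study's methods give an older age at biopsy than the labels, and age was not used. All 24 columns were assigned to an animal by its title, and 0 columns were left without a sample. Groups came from the labels. The bisulfite sequencing was not analysed here.

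Counts were analysed in R (4.3.3) with edgeR (4.0.16), using filterByExpr (minimum count 10, minimum total 15), TMM scaling and 1 robust quasi-likelihood fit of the 4 groups. P-values were adjusted by Benjamini-Hochberg over 15207 genes. DESeq2 (1.42.0; the study used 1.18.1), other scalings and filters, a library batch term, the 16 libraries outside the batch, a mesothelial covariate, a 1.5-fold minimum and leaving out each animal were alternatives, and the 8 libraries of the batch alone were added after the data were seen. Each of the 60 within-group library pairs differed in its counts. The effect of depth was not tested apart from that of the library batch. The members and lists were chosen with earlier results of these data known. Named were the 8 subunits, *CCT6B*, up to 4 called genes of each other list by size of change (otherwise its lowest and highest), and the 5 genes with the highest and 3 with the lowest r with the summed TRiC level. *TBCE*, *TUBB*, *HSPD1*, *HSF1* and *MKKS* and the genes that overlap a subunit were named after their values were seen. Of 86 listed symbols 73 were matched in the gene name table and 71 tested. Sequences and gene lengths were not used here. The fits were tested on simulated data.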

Additional observations from a re-analysis of the deposited data

Results flagged for a closer look

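In the *T* group, 2 single values stood apart from the other 5 animals by Dixon's test for 6 samples. *CCT3* was 187.3 CPM in *T* 13, a library of the library batch, where the next highest *T* animal had 153 CPM. *CCT4* was 119 CPM in *T* 17, where the next lowest had 138 CPM. The test was run on 32 combinations of subunit and group, and chance flags about 1 in 20.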

How the results depend on the processing

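For *T* + *WSD* against *C* the 4 called subunits became 0 in the 16 libraries outside the library batch, 0 with the mesothelial covariate, 0 in the 8 libraries of the batch (chosen after seeing the data) and 0 when a 1.5-fold change was also required, and 2 to 4 with each animal left out (2 without *C* 3 or without *T* + *WSD* 8). The share of all genes called was 17.1% with all animals and 9.11% to 19.5% with each animal left out. DESeq2 kept the count of 4. All 8 estimates stayed below 0 under every alternative. In the 8 libraries alone, with 2 animals in each group, edgeR called 0 of 13799 genes for *T* + *WSD* against *C* and against *T*. The counts of 0 there therefore say nothing about TRiC in particular. *CCT8* was not called with DESeq2's size factors in edgeR (adjusted p = 0.0575), upper-quartile scaling (0.0543) or no filter (0.0581). For *WSD* against *C* DESeq2 called 1 in place of 0, and the fits without 1 animal 0 to 0. For *T* + *WSD* against *T* the count of 1 became 0 with DESeq2's size factors, upper-quartile scaling, no filter, at least 10 counts in every animal, the batch term, the 16 libraries, the mesothelial covariate, the 8 libraries and the 1.5-fold minimum, and was 0 to 1 with each animal left out. The count of 1 was kept by DESeq2, with only the 2 groups and without ENSMMUG00000038258. Estimates near 0 changed sign. *CCT2* for *WSD* against *C* was -0.0203 with upper-quartile scaling, -0.00698 with at least 10 counts, -0.0824 in the 16 libraries and -0.0395 to 0.0751 with each animal left out. *CCT4* there was 0.0307 with the mesothelial covariate, 0.170 in the 8 libraries and -0.0829 to 0.0564 with each animal left out. For *T* + *WSD* against *T*, *TCP1* was 0.0381 in the 16 libraries, and *CCT6A* 0.0778 there and 5.97e-05 with the mesothelial covariate. *CCT5* was 0.00135 with DESeq2, 0.00263 with its size factors, 0.0167 with upper-quartile scaling, 0.00310 with at least 10 counts, 0.00527 with only the 2 groups, 0.0807 in the 16 libraries and -0.0673 to 0.0150 with each animal left out. The subsets hold fewer libraries, and otherwise the cause was not tested. No paired analysis was possible because the labels give each animal a number of its own.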
